A study of Mus musculus with 11 samples.

Results

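Ribosome footprints were set against messenger RNA in unstimulated CD8 T cells of the mouse, gene by gene, in cells that had been primed but not restimulated. The comparison used 3 footprint libraries against 3 RNA libraries, all labelled T0. Of 21957 genes in the counts, 8481 had at least 1 footprint, and 909 had at least 10 footprints summed over the 3 libraries, which is the number taken here as enough. These 909 genes were chosen by this count alone; 140 of them had exactly 10 footprints, and 174 further genes had 9. They held 47.7% of all footprints, with a median of 15 footprints per gene, and 801 of them had a footprint in each library.

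The cells were primed OT1 cells, CD8 T cells of a transgenic mouse line whose receptor recognises a peptide of ovalbumin. The series title calls them memory T cells. Both assays came from cells that were not restimulated and were kept at rest while other cells of the series received beads against CD3 and CD28, the antigen receptor complex and its costimulator. All cells, in both assays, were given cycloheximide, which stalls ribosomes on messages, for 10 min before lysis. The labels call the RNA libraries total RNA and the footprints ribosome protected RNA. They do not say whether the replicates are separate cultures or mice, so every p-value measures only the spread between these libraries, which may be technical. Sex, age and the priming antigen are not given in the sources used here.

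A ribosome covers a short stretch of the message it reads, and nuclease digests the rest, so the protected fragments count ribosomes on each coding sequence. The ratio of footprints to RNA is the usual measure of translational efficiency. Resting T cells are known for low protein synthesis. Messages for ribosomal proteins and elongation factors start with a run of pyrimidines, the TOP motif, and leave ribosomes when the kinase mTOR is inactive.

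Depth limited the footprints. Totals were 11136, 14571 and 15237 footprints, 40944 in all, against 39346699, 29279903 and 39147037 RNA counts. Counts are also given as CPM, counts scaled to the library total. A gene without footprints could have had up to 3, equal to 269, 206 and 197 CPM in the 3 footprint libraries; these limits and all intervals below cover counting error only, at 95% confidence (exact Poisson). Across 725 tested genes the Spearman correlation was 0.42 between footprint libraries 1 and 2, a description across genes that share depth and are no replicates. RNA replicate 2 had 15.5% of its counts in 4 predicted genes (Gm10800, Gm10801, Gm20594 and Gm21738), against 4.14 and 5.24% in the other RNA libraries and at most 0.748% in the footprints. The cells carried the markers of CD8 T cells: all 10 listed T cell markers had footprints, 317 together. The 4 listed markers of helper and regulatory T cells (Cd4, Foxp3, Cd40lg and Zbtb7b) had 1 footprint together, and Cd4 and Foxp3 had none. These 4 held 0.0024% of the RNA on average, so at this depth their footprints say little about purity. The lists for B cells, myeloid cells, granulocytes and erythroid cells had 1 to 3 footprints each, and 5 of 6 natural killer cell markers were at 0. The sixth, the granzyme gene Gzma, is also made by CD8 T cells and had 28. None of the 13 genes of the mitochondrial genome had a count in any of the 6 libraries.

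Grouped by RNA level, messages of low abundance took more of the footprints than of the RNA, and the most abundant messages took less, once the 4 Gm genes were left out of the totals. The RNA values that set the groups are also a side of the comparison. This grouping can by itself pull the shares apart in this direction, so they are a description. Genes with 1 to 10 CPM of RNA held 1.1, 2.0 and 1.19% of the 3 RNA libraries and 7.83, 5.05 and 5.42% of the 3 footprint libraries. From 10 to 100 CPM the pooled shares were 25.9% of RNA and 29.8% of footprints, and from 250 to 1000 CPM they were 34.2 and 27.5%. The 59 genes above 1000 CPM held 11.2, 10.6 and 11.2% of the RNA and 7.15, 8.62 and 9.2% of the footprints, with no overlap. With the 4 Gm genes included, the class above 1000 CPM held 17.5% of the RNA and 8.14% of the footprints. The 9196 genes under 1 CPM of RNA held 4.08% of footprints, and 12.3% of these genes had 1 or more. The 20 listed genes of sense organs, gut and other tissues, taken as a measure of background, had 4 footprints, 0.0105% of the footprints against 0.000919% of the RNA. The part of such background in the excess at low RNA was not tested. Across the 12761 genes with at least 1 CPM of RNA the Spearman correlation of summed footprints with mean RNA was 0.59, and across the 909 genes with enough footprints it was 0.53. It was 0.32 across the 761 genes with at least 250 CPM of RNA and 0.00 across the 725 tested genes, whose filter sums both assays. All 4 are descriptions across genes, since longer coding sequences collect more counts in both assays.

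**Figure D1:**
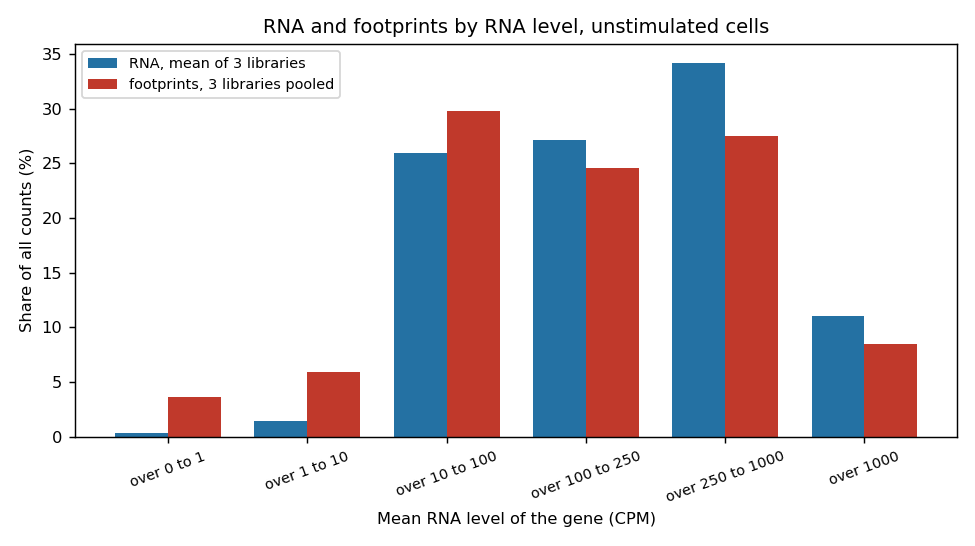
Share of all RNA counts (blue, mean of 3 libraries) and of all footprints (red, 3 libraries pooled), in percent, for genes grouped by mean RNA level in CPM, without the 4 Gm genes. Footprints exceed RNA in the classes up to 100 CPM (29.8 against 25.9% from 10 to 100 CPM) and lie below it in the higher ones (27.5 against 34.2% from 250 to 1000 CPM).

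Actb, the cytoplasmic beta-actin, had the most footprints of any gene, 475, followed by the linker histone genes Hist1h1d with 192 and Hist1h1c with 169. Coro1a, an actin-binding coronin of leukocytes, had 167. Next came the histone H4 gene Hist2h4 and the class I light chain gene B2m with 155 each, Myh9 (non-muscle myosin) and Ptprc (the phosphatase CD45) with 150 each, and the histones H2afx with 139 and Hist1h1b with 134. These are counts, not levels per length. The 10 genes together held 4.61% of footprints.

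Each gene's ratio was tested with edgeR's quasi-likelihood test, with Benjamini-Hochberg adjustment over all tested genes. Genes were tested where the CPM averaged over both assays was at least 250, where an equal share in both assays would give at least 10.2 footprints. Of the 909 genes with enough footprints, 591 were tested. The other 318 had 10 to 20 footprints and too little RNA to reach the minimum. The 725 tested genes also included 134 with fewer than 10 footprints, 14 of them with none. Levels below are CPM scaled by TMM factors (scaled CPM), and a log2 ratio is footprints minus RNA, so that 0 means equal scaled CPM. Since TMM factors differ between the assays, 0 is not an equal share of the counts: a class with equal shares lies below 0.

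Of the 725 tested genes, 110 were higher in footprints than in RNA (15.2%) and 186 were lower (25.7%), at an adjusted p under 0.05, 296 in all (40.8%). The difference was at least 2-fold in 88 of the former and 174 of the latter, and at least 4-fold in 22 and 86. In 412 tested genes (56.8%) the 3 libraries of one assay did not overlap with those of the other. The filter itself favours unequal genes: 67 of the 110 higher genes had under 250 CPM of RNA and passed through their footprints, and 124 of the 186 lower genes had under 250 CPM of footprints and passed through their RNA. The counts, and the counts and medians of tested genes given for classes below, are therefore a description of this selection. A gene that entered the test through 1 assay alone was selected by the value tested, and its p-value is a description too; the genes concerned are named in each paragraph. The ratios spanned a log2 of -2.23 at the 10th percentile, -1.05 at the 25th, -0.16 at the median, 0.61 at the 75th and 1.34 at the 90th, so that the middle of the distribution covered 3.16-fold. This spread takes in counting error. The interquartile range of the log2 ratio was 1.67 with the 3 footprint libraries, and 2.21, 2.14 and 1.98 with each of them alone. The zero of the scale depends on the scaling: with library totals in place of TMM factors the median ratio moved up by 0.41, and the higher genes went from 37.2 to 61.7% of the calls. With totals that left out the 4 Gm genes the median shift was 0.29 and the share 55.3%. In bulk libraries, fewer cells that carry or translate a message and less of it per cell cannot be told apart.

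**Figure D2:**
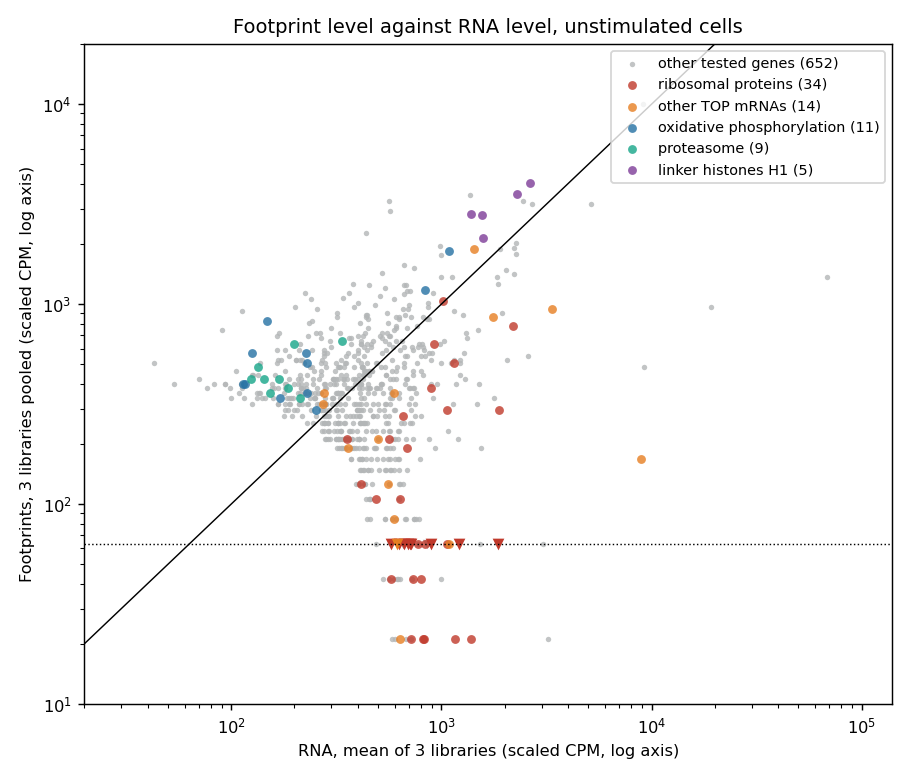
Footprint level (3 libraries pooled) against RNA level (mean of 3 libraries) for the 725 tested genes, in scaled CPM on log axes; the solid line marks equal scaled CPM, triangles are genes with 0 footprints drawn at the limit of 3 counts (dotted line, 63.3 scaled CPM), and 2 genes lie left of the axis. Ribosomal protein genes sit below the solid line except Rpl8, which lies on it; the lower left corner is empty because of the filter.

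Ribosomal protein messages had the fewest footprints for their RNA of the 30 classes with at least 100 footprints. The 79 genes for proteins of the cytosolic ribosome took 4.17, 3.47 and 4.15% of the RNA in the 3 libraries, and 0.62, 0.721 and 0.807% of the footprints. The summed ratio was a log2 of -2.84 (counting interval -3.01 to -2.68), and it was -2.98, -2.89 and -2.72 with each footprint library alone. The large subunit stood at -2.84 and the small subunit at -2.85, and under library totals the 2 values were -2.43 and -2.45. All RNA libraries lay above all footprint libraries. Of the 79 genes, 40 had no footprint and 10 had 10 or more. Of the 34 that were tested, 31 were lower and 0 higher, but 26 of the 34 had under 250 CPM of footprints and entered through their RNA, so these counts and the medians of tested genes support nothing. Their median was -3.92, or -3.43 with the genes at 0 footprints set to the limit of 3 counts, beside -0.16 for all tested genes.

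Rpsa (chromosome 9, 120127766 to 120132369), the small subunit protein also known as the laminin receptor, had 0 footprints in every library against 1855, 1837 and 1864 scaled CPM of RNA. At 3 counts over the 3 libraries it was at least 29.3-fold lower in footprints (edgeR, adjusted p = 3.3e-05). Rps2 was at 0 against 1187, 1166 and 1273 scaled CPM, at least 19.1-fold lower. Rps12, Rpl6, Rps18, Rpl9, Rpl10 and Rps27 were also at 0, from at least 14.0-fold lower for Rps12 to at least 9.09-fold for Rps27. These 8 genes passed the test, at adjusted p between 3.3e-05 and 0.000832, and all 8 entered through their RNA; the lower bounds rank the RNA of the genes, not their footprints.

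Other ribosomal protein genes had clear footprints. Rpl8 (chromosome 15, 76904071 to 76906318) had 11, 24 and 14 footprints, 912, 1390 and 775 scaled CPM, against 1031, 993 and 1039 in RNA. The assays overlapped, and its ratio of 0.02 ± 0.20 (SE) did not pass (adjusted p = 0.964). Rpl4 had 11, 7 and 19 footprints, 912, 405 and 1052 scaled CPM against 2186, 2234 and 2179, all below the RNA (ratio -1.49 ± 0.26, adjusted p = 0.00132). Rps3 had 4, 6 and 14 footprints with a ratio of -1.19 ± 0.26 (adjusted p = 0.00481). Rpl8, Rpl4 and Rps3 were chosen after their values were seen, from those with most footprints of the class. The 15 ribosomal protein genes that have no pseudogene named after them in RefSeq, these 3 among them, had a summed ratio of -1.59 (interval -1.81 to -1.38). For the 64 with at least 1 it was -3.74 (-4.01 to -3.48). Of the tested ones without, 8 of 10 were lower, with a median of -1.67, and of those with, 23 of 24, with a median of -4.18. With genes at 0 footprints set to the limit of 3 counts, the medians were -1.67 and -3.48. The same division outside this class gave a median of -0.03 for 663 tested genes without a named pseudogene and -1.14 for 28 with one. Reads that match a gene and its near-identical copies may be counted in neither or be split, more so for short footprints. The part of such copies in the ratios was not tested beyond this division, which knows only pseudogenes that carry the gene's name.

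**Figure D3:**
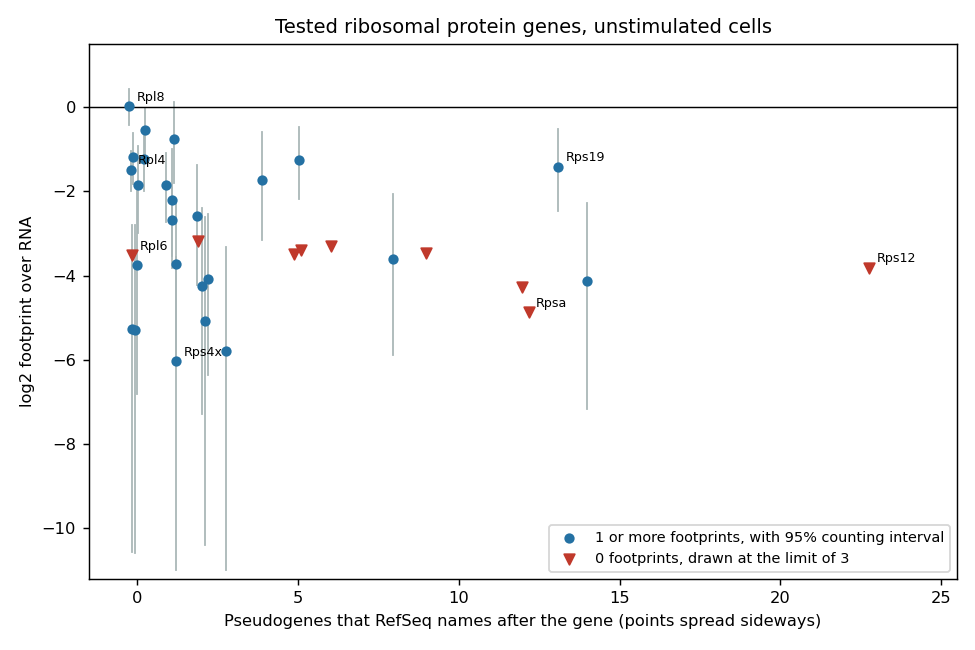
Log2 ratio of footprints to RNA for the 34 tested ribosomal protein genes against the number of pseudogenes RefSeq names after each; blue points have 1 or more footprints, with their 95% counting interval (cut off at the lower edge), and the red triangles mark the 9 genes with 0 footprints at the limit of 3 counts. Rpl8 lies at 0.02; the genes with no named pseudogene reach higher than most of those with several.

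The other messages of the TOP class, for elongation factors and related proteins, were also low in footprints. The 24 genes held 2.18, 1.86 and 2.13% of the RNA and 0.925, 0.776 and 0.604% of the footprints, a summed ratio of -1.86 (interval -2.03 to -1.70). With each footprint library alone it was -1.47, -1.85 and -2.21. Of the 14 tested, 9 were lower and 0 higher, with a median of -1.51, but 7 of the 14, Eef1a1 and Tpt1 among them, entered through their RNA, so the class rests on its sum. Eef1a1 (chromosome 9, 78478453 to 78481724), which brings aminoacyl-tRNA to the ribosome, had 3, 3 and 2 footprints, 249, 174 and 111 scaled CPM. Its RNA was 9002, 8991 and 8807 scaled CPM. It was thus 52.9-fold lower in footprints (log2 ratio -5.71 ± 0.32, adjusted p = 4.91e-06), with 2 pseudogenes named after it. Eef2, the translocation factor, had 20, 17 and 8 footprints, 1657, 985 and 443 scaled CPM against 3333, 3357 and 3363 (ratio -1.78 ± 0.32, adjusted p = 0.00172). Tpt1, which encodes the translationally controlled tumour protein, had 0 footprints against 611, 615 and 629 scaled CPM, at least 9.77-fold lower (adjusted p = 0.000366). Rack1, a scaffold protein on the small subunit, was among the less reduced members at -1.03 ± 0.18 (adjusted p = 0.00167).

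The TOP motif can be looked for in the sequence around the annotated start of a gene. The search was for a C followed by at least 7 pyrimidines, C or T in any order, between 10 bases before and 50 bases after each start, on the gene's own strand. It was present in 43 of the 58 ribosomal protein genes with an entry (74.1%), 7 of 17 other TOP genes (41.2%), 17.2% of oxidative phosphorylation genes, 10.7% of proteasome genes, 24.4% of tested genes and 18.9% of all 27025 genes with an entry. A shorter form, a C at the start itself with 4 pyrimidines after it, was found in 24.1% of ribosomal protein genes and 3.01% of all genes. The 8 windows of 30 bases below (RefSeq, GRCm38.p6) show the run in capitals in 4 ribosomal protein genes with 0 footprints, in 2 with 10 and 37 footprints, and in Eef1a1 and Rack1.
Rps12, chr10:23787182-23787211, minus strand: ccaccgccggCCTTTTCCCCTgccgccgcc
Rps18, chr17:33955646-33955675, minus strand: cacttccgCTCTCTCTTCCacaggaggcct
Rpl9, chr5:65391382-65391411, minus strand: cgaaagacgttCTCTCTTTgccccatctac
Rps27, chr3:90213629-90213658, minus strand: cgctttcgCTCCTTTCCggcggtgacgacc
Rps26, chr10:128626484-128626513, minus strand: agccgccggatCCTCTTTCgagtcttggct
Rpl4, chr9:64173405-64173434, plus strand: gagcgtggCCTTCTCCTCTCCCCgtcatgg
Eef1a1, chr9:78481705-78481734, minus strand: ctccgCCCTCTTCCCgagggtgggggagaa
Rack1, chr11:48800350-48800379, plus strand: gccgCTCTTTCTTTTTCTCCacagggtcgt
Runs were found in genes at 0 footprints and in genes with many. Among tested ribosomal protein and TOP genes, the 20 with a run had a median ratio of -4.18 and the 13 without had -2.67. Genes at 0 footprints entered at their fitted ratios, which the counts do not determine, so the size of this gap is uncertain. Among other tested genes the medians were -0.27 for 112 with a run and -0.04 for 396 without. A match is a description of these letters, not evidence of a working motif.

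Initiation factors as a class were closer to their RNA. The 34 genes had a summed ratio of -0.44 (interval -0.61 to -0.27; -0.03 under library totals). Of 10 tested, 3 were lower and 0 higher, and the median was 0.02. Over all tested genes 25.7% were lower and 15.2% higher. Eif4a1, the helicase that unwinds messages for the scanning ribosome, had 0 footprints against 844, 848 and 859 scaled CPM, at least 13.4-fold lower (adjusted p = 0.000133). Eif5, which releases initiator tRNA for subunit joining, had 2, 2 and 3 footprints against a mean of 596 scaled CPM of RNA (ratio -2.01 ± 0.35, adjusted p = 0.00138). Both entered the test through their RNA. The 77 genes for ribosomal proteins of mitochondria were above their RNA share, unlike the cytosolic class. They held 0.27, 0.238 and 0.27% of the RNA and 0.404, 0.426 and 0.453% of the footprints, a summed ratio of 0.32 (interval 0.10 to 0.53). None reached the level needed for a test, and 23 had no footprint. Ribosome biogenesis genes (56) stood at 0.09 (-0.07 to 0.24), with 1 of 7 tested higher. That gene was the nucleolin gene Ncl, with 13, 19 and 28 footprints and a ratio of 1.75 ± 0.37 (adjusted p = 0.00463, and 0.0645 without footprint replicate 3).

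**Figure D4:**
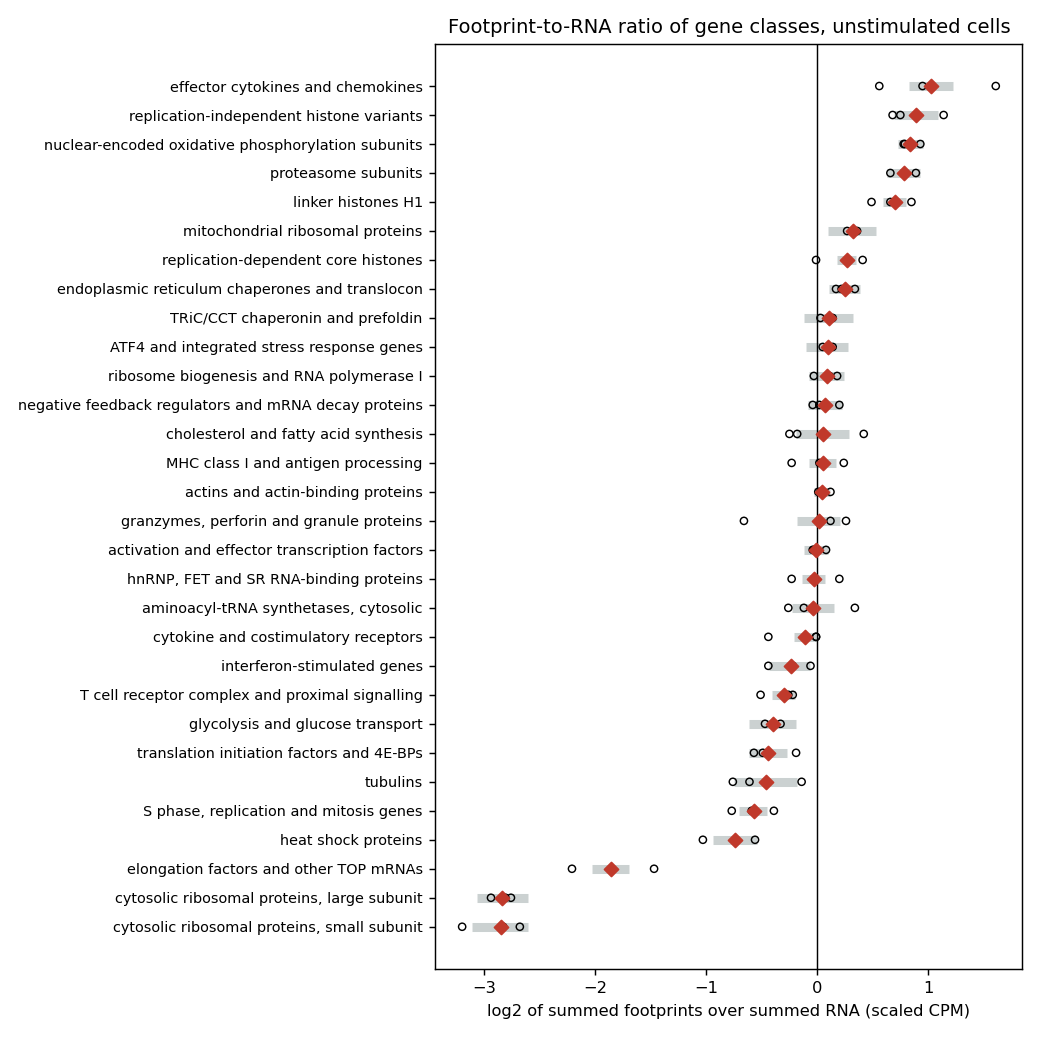
Log2 ratio of summed footprints to summed RNA for the 30 gene classes with at least 100 footprints: red diamonds pool the 3 footprint libraries, grey bars are the 95% counting interval of the pooled value, and open circles are single footprint libraries. Both ribosomal protein classes lie near -2.84, other TOP messages at -1.86, and cytokines, histone variants, oxidative phosphorylation, proteasome and linker histones between 0.70 and 1.03. Of the 205 footprints of the histone variants, H2afx alone held 139.

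Genes of the mitochondrial respiratory chain and ATP synthase that are encoded in the nucleus had more footprints than their RNA share. The 77 genes held 0.768, 0.647 and 0.762% of the RNA and 1.56, 1.69 and 1.88% of the footprints. The summed ratio was 0.84 (interval 0.73 to 0.95), and 0.79, 0.78 and 0.93 in the single footprint libraries, with no overlap between the assays. Of 11 tested genes 6 were higher and 0 lower, but 9 of the 11 had under 250 CPM of RNA and passed the filter through their footprints, so these counts support nothing. The sum takes in all 77 genes, tested or not, and was 1.25 under library totals. Of the genes named next, Atp5g3 and Cox6a1 entered through their footprints and Atp5b reached 250 CPM in both assays. Atp5g3 (chromosome 2, 73908447 to 73912464), a ring subunit of ATP synthase, had 9, 12 and 18 footprints, 746, 695 and 997 scaled CPM against 157, 139 and 149 (ratio 2.47 ± 0.34, adjusted p = 0.000413). Cox6a1, a subunit of cytochrome c oxidase, had 7, 7 and 13 footprints (ratio 2.17 ± 0.38, adjusted p = 0.00138). Atp5b, the catalytic beta subunit of ATP synthase and the one with the most RNA of those named here, had 13, 38 and 36 footprints, and its assays overlapped in library 1 (ratio 0.74 ± 0.19, adjusted p = 0.0105).

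Proteasome genes also had more footprints than their RNA share. The 34 subunit genes held 0.426, 0.361 and 0.422% of the RNA and 0.862, 0.865 and 1.02% of the footprints, a summed ratio of 0.78 (interval 0.63 to 0.93). Only 1 of the 34 had no footprint. Of 9 tested 7 were higher and 0 lower, but 8 of the 9, Psmb2 and Psmd13 among them, had under 250 CPM of RNA and entered through their footprints, so the counts and p-values add nothing to the sum. Psmb2, a beta subunit of the catalytic core, had 8, 5 and 10 footprints, 663, 290 and 554 scaled CPM against 134, 137 and 133 (ratio 1.85 ± 0.40, adjusted p = 0.00463). Psmd13, a subunit of the regulatory cap, had 1, 8 and 11 footprints; library 1 lay below the RNA and libraries 2 and 3 above it, and the ratio of 1.75 ± 0.49 (adjusted p = 0.0175) did not pass without footprint replicate 2 (0.0863) or 3 (0.159).

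Histones were among the genes with most footprints, and the summed ratios of their families differed. Histones package DNA, and the replication-dependent ones are made in S phase from messages without a poly(A) tail. The 8 linker histone H1 genes took 0.874, 0.706 and 0.907% of the RNA and 1.45, 1.78 and 2.03% of the footprints (summed ratio 0.70, interval 0.59 to 0.80). All 5 that were tested had over 250 CPM in both assays. Of these, 4 were higher and 0 lower, beside 15.2 and 25.7% of all tested genes. Hist1h1b (chromosome 13, 21779832 to 21780625) had 30, 46 and 58 footprints, 2486, 2664 and 3212 scaled CPM, all above the RNA at 1406, 1350 and 1415 (ratio 1.02 ± 0.14, adjusted p = 0.000413). Hist1h1a had 31, 37 and 64 footprints (0.83 ± 0.18, adjusted p = 0.00463), and Hist1h1c had 35, 63 and 71 (0.62 ± 0.17, adjusted p = 0.0172, and 0.0522 to 0.0637 when footprint replicate 3 or RNA replicate 1 or 3 was left out).

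Among the core histones, the summed ratio was 1.13 (interval 0.95 to 1.30) over 18 H2A genes and 0.85 (0.73 to 0.98) over 13 H4 genes. It was -0.15 (-0.38 to 0.06) over 12 H3 genes and -0.84 (-1.05 to -0.65) over 18 H2B genes. The H2A value was 0.84, 1.39 and 1.03 in single footprint libraries and the H2B value -1.68, -0.49 and -0.80, so H2A and H2B, which pair in the nucleosome, were apart in each library. This split into families was made after the values were seen. Over all 61 core histone genes the assays overlapped in scaled CPM (0.27, interval 0.18 to 0.35). Their shares did not overlap, at 1.85, 1.46 and 2.07% of the RNA and 2.21, 3.23 and 2.95% of the footprints. Of 29 tested core histone genes 3 were higher and 4 lower, beside 15.2 and 25.7% of all tested genes. Hist2h4 (chromosome 3, 96262934 to 96263317) had 29, 70 and 56 footprints, 2403, 4054 and 3101 scaled CPM against 568, 551 and 570 (ratio 2.54 ± 0.16, adjusted p = 6.92e-06). Hist4h4 stood at 2.38 ± 0.23 (adjusted p = 6.76e-05). Hist2h4 and Hist4h4 held 155 and 108 of the 522 footprints of the H4 genes. Of 9 tested H4 genes these 2 were higher and the other 7 were not called, so the family sum need not hold for each gene. The H4 genes encode the same protein from similar sequences, and reads may be divided between them or counted in none. A division among the 13 genes leaves their sum as it is. Reads counted in none would be missing from it, perhaps unequally in the assays, which was not tested. Hist3h2a had 14, 19 and 19 footprints, 1160, 1100 and 1052 scaled CPM, against 6.99, 9.59 and 8.92 in RNA, a 129-fold difference (ratio 7.03 ± 0.50, adjusted p = 1.22e-05). It held 52 of the 268 footprints of the H2A genes. Another coding gene overlaps Hist3h2a, and the part of overlapping reads in its value was not tested. In the other direction, Hist1h2bg had 1, 1 and 2 footprints against 648, 675 and 715 scaled CPM (ratio -3.01 ± 0.44, adjusted p = 0.000499). Of the histone variants that are made outside S phase, H2afx, which marks DNA breaks when phosphorylated, was higher, with 29, 61 and 49 footprints (ratio 2.36 ± 0.43, adjusted p = 0.00193). H3f3b, one of the genes for H3.3, was lower with 4, 2 and 1 (ratio -2.22 ± 0.40, adjusted p = 0.00167). Hist3h2a entered the test through its footprints, and Hist1h2bg and H3f3b through their RNA.

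Effector cytokines and chemokines had the highest summed ratio of the 30 classes with at least 100 footprints, 1.03 (interval 0.83 to 1.22). The 35 genes held 0.205, 0.174 and 0.202% of the RNA and 0.736, 0.508 and 0.387% of the footprints, with single-library ratios of 1.61, 0.95 and 0.56. The rank holds for the pooled libraries and for library 1 alone. In library 2 histone variants stood higher (1.14). In library 3 oxidative phosphorylation (0.93), proteasome (0.89), linker histones (0.85) and histone variants (0.75) did. The histone variants lean on 1 gene, H2afx, with 139 of their 205 footprints. Of the 215 footprints of cytokines and chemokines, Xcl1 held 46 and Ccl4 held 38, and 12 of the 35 genes had none. Of 4 tested, 3 were higher and 0 lower, and 3 of the 4 had under 250 CPM of RNA, so nothing is read from these counts. Xcl1 (chromosome 1, 164931644 to 164935522), a chemokine that draws cross-presenting dendritic cells, had 19, 15 and 12 footprints, 1574, 869 and 665 scaled CPM against 209, 194 and 201 (ratio 2.27 ± 0.34, adjusted p = 0.000586). Ccl4, a chemokine of inflammation, had 10, 16 and 12 footprints, 829, 927 and 665 scaled CPM against 243, 228 and 233 (ratio 1.77 ± 0.28, adjusted p = 0.000867). In both genes all footprint libraries exceeded all RNA libraries, and both entered the test through their footprints.

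The cytokines that define the recall response had too few footprints to test. Ifng had 3, 1 and 2 footprints against 57.0, 53.3 and 50.4 scaled CPM of RNA, a pooled log2 ratio of 1.24 with a counting interval from -0.21 to 2.36. Tnf had 4, 2 and 2 against 185, 177 and 171 (-0.07, interval -1.29 to 0.90). Il2, the T cell growth factor, had 0, 1 and 1 footprints and 4.74, 4.21 and 4.24 scaled CPM of RNA (3.26, interval 0.22 to 5.12). Ccl5 had 1, 1 and 2 footprints (2.01, interval 0.13 to 3.37). The intervals of Ifng and Tnf include 0, and the levels of Il2 and Ccl5 rest on 2 and 4 footprints. Proteins of the cytotoxic granule as a class stood at 0.02 (interval -0.18 to 0.21), with single-library ratios of -0.66, 0.12 and 0.26. Gzmb, the granule protease granzyme B, had 5, 17 and 20 footprints, 414, 985 and 1108 scaled CPM against 1292, 1305 and 1224. All 3 lay below the RNA, and the test was not passed (ratio -0.53 ± 0.23, adjusted p = 0.0863). Nkg7, a membrane protein of the granule, had 4, 21 and 16 footprints and a ratio of 1.43 ± 0.33 (adjusted p = 0.00726, and 0.085 without footprint replicate 2).

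**Figure D5:**
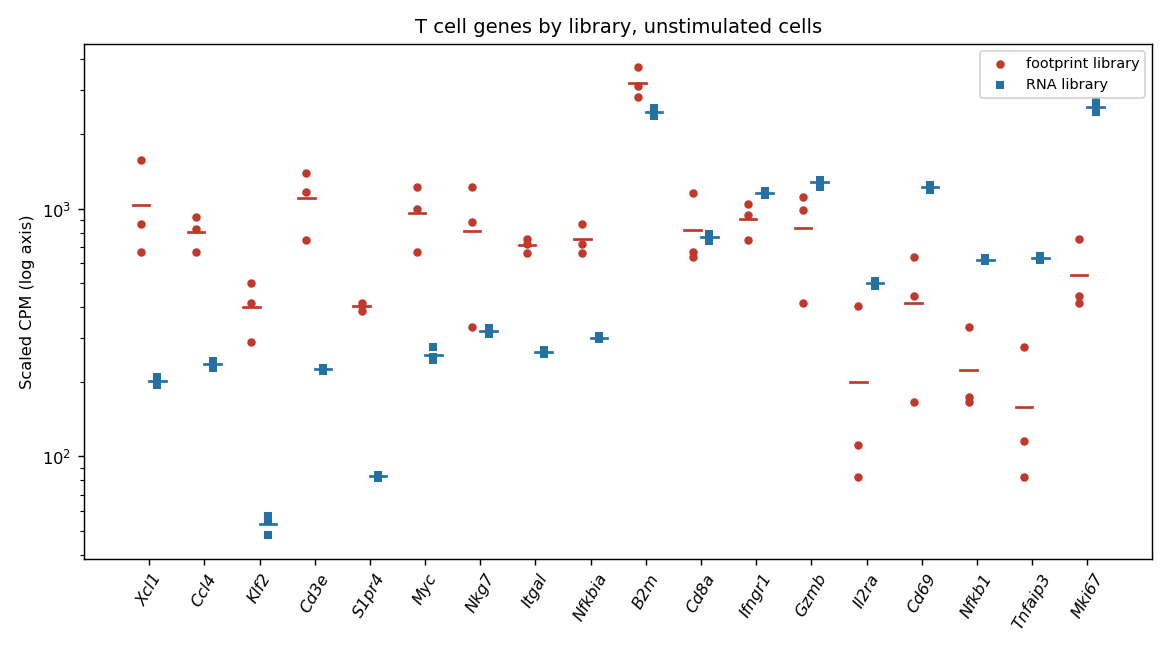
Scaled CPM (log axis) of 18 T cell genes in each footprint library (red circles) and RNA library (blue squares), with the mean of each group as a line. For Xcl1 and Cd3e the circles lie above the squares, for Cd8a the groups overlap, and for Cd69 and Mki67 the circles lie below.

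The antigen receptor and its proximal signalling genes held 1.68, 1.42 and 1.64% of the RNA and 1.37, 1.85 and 1.79% of the footprints (summed ratio -0.30, interval -0.41 to -0.20, which turns to 0.10 under library totals). Of 22 tested genes 1 was higher and 4 lower, with a median of 0.12, beside 15.2% higher and 25.7% lower over all tested genes. Cd3e (chromosome 9, 44998735 to 45009663), a signalling chain of the receptor, was the higher one and entered the test through its footprints. It had 9, 24 and 21 footprints, 746, 1390 and 1163 scaled CPM against 228, 226 and 222 (ratio 2.34 ± 0.26, adjusted p = 0.000133). Its partner chains Cd3d and Cd3g had ratios of 0.21 ± 0.32 and 0.51 ± 0.24 and did not pass. Cd8a, the coreceptor, had 14, 11 and 12 footprints, 1160, 637 and 665 scaled CPM against 786, 738 and 769, with overlap (0.03 ± 0.23, adjusted p = 0.943). Thy1, a surface glycoprotein of T cells, was higher with 15, 32 and 27 footprints (1.23 ± 0.18, adjusted p = 0.000529).

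Of the 22 tested surface receptor genes 4 were higher and 4 lower, with a median of -0.02. These counts do not set the class apart from all tested genes, of which 15.2% were higher and 25.7% lower. S1pr4 entered the test through its footprints and Il2ra through its RNA. Cd69, which holds T cells in tissue and is induced by activation, had 2, 11 and 8 footprints, 166, 637 and 443 scaled CPM against 1247, 1234 and 1191 (ratio -1.47 ± 0.26, adjusted p = 0.00167). Il2ra, the alpha chain of the IL-2 receptor, had 1, 7 and 2 footprints (-1.25 ± 0.43, adjusted p = 0.0402); leaving out 1 library took away the call in 5 of 6 cases. S1pr4, a receptor for the egress lipid sphingosine 1-phosphate, had 5, 7 and 7 footprints, 414, 405 and 388 scaled CPM against 82.1, 82.5 and 84.4 (2.27 ± 0.42, adjusted p = 0.00211). Slc3a2 and Slc7a5, the chains of a transporter for large neutral amino acids, were both higher. Slc3a2 had 9, 36 and 23 footprints (1.46 ± 0.26, adjusted p = 0.00159) and Slc7a5 had 9, 18 and 15 (1.0 ± 0.25, adjusted p = 0.0113, and 0.0704 without footprint replicate 2). Ifngr1, a chain of the interferon gamma receptor, had 9, 18 and 17 footprints and did not pass (-0.31 ± 0.17, adjusted p = 0.215). Notch1, which steers T cell fate, had 3 footprints in each library and was below the test's minimum (pooled ratio -0.65, interval -1.78 to 0.27).

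Among transcription factors, 5 of 23 tested were higher and 3 lower, with a median of -0.01, beside 15.2% higher and 25.7% lower over all tested genes, and nothing is read from these counts. Of the genes of both lists named next, Myc, Klf2 and Zfp36l2 entered through their footprints and Tnfaip3 through its RNA. Myc, which drives growth after activation, had 12, 21 and 12 footprints, 994, 1216 and 665 scaled CPM against 245, 276 and 251 (ratio 1.89 ± 0.35, adjusted p = 0.00198). Klf2, which keeps T cells quiescent, had 5, 5 and 9 footprints, 414, 290 and 498 scaled CPM against 48.1, 55.0 and 57.7 (2.90 ± 0.58, adjusted p = 0.00318). Nfkb1, a subunit of NF-kappaB, was lower with 4, 3 and 3 footprints (-1.56 ± 0.31, adjusted p = 0.00328). Hif1a, the oxygen-regulated factor, had 3, 1 and 10 (-1.28 ± 0.39, adjusted p = 0.0264, and 0.106 or 0.126 without footprint replicate 1 or 2). Of the inhibitors of activation, 3 of 12 tested were higher and 4 lower. Nfkbia, which holds NF-kappaB in the cytoplasm, had 8, 15 and 13 footprints (1.34 ± 0.25, adjusted p = 0.00211), and Zfp36l2, which promotes decay of messages with AU-rich elements, had 7, 14 and 7 (1.49 ± 0.50, adjusted p = 0.0363, and 0.0599 to 0.248 when any 1 footprint library was left out). Tnfaip3, the A20 protein that limits NF-kappaB signalling, had 1, 2 and 5 (-1.90 ± 0.36, adjusted p = 0.00233).

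The assays overlapped in the share that proliferation genes took of the counts. In scaled CPM all footprint libraries lay below all RNA libraries. The 43 genes for S phase, replication and mitosis held 1.45, 1.28 and 1.42% of the RNA and 1.15, 1.44 and 1.11% of the footprints. The summed ratio was -0.57 (interval -0.70 to -0.45), and -0.16 under library totals, beside -0.53 for the sum over all tested genes. Of 16 tested 2 were higher and 5 lower, beside 15.2 and 25.7% of all tested genes. Pcna entered through its RNA and Lmnb1 through its footprints, while Mki67 had over 250 CPM in both assays. Mki67, the proliferation antigen, had 5, 13 and 8 footprints, 414, 753 and 443 scaled CPM against 2560, 2706 and 2460 (ratio -2.24 ± 0.23, adjusted p = 0.000103). Pcna, the sliding clamp of replication, had 4, 0 and 2 footprints (-2.32 ± 0.50, adjusted p = 0.00487) and has 2 named pseudogenes. Lmnb1, a protein of the nuclear lamina, was higher with 12, 13 and 8 footprints (2.08 ± 0.35, adjusted p = 0.00116).

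Of 31 tested hnRNP, FET and SR genes 9 were higher and 7 lower, beside 15.2 and 25.7% of all tested genes. Of the 31, 7 had under 250 CPM of RNA and 7 under 250 CPM of footprints, so nothing is read from these counts. The class sum was -0.03 (interval -0.14 to 0.07). Pcbp1, a poly(C)-binding protein from a gene without introns, had 10, 9 and 5 footprints, 829, 521 and 277 scaled CPM against 41.5, 45.9 and 41.9 (ratio 3.56 ± 0.54, adjusted p = 0.000678). Srsf3, an SR splicing factor, had 0, 0 and 2 footprints against 527, 542 and 520 scaled CPM, a ratio of -3.65 with a counting interval from -6.70 to -1.80 (adjusted p = 0.00132). Srsf5 had 2, 2 and 0 (-2.44 ± 0.55, adjusted p = 0.00611). Higher genes also included Hnrnpa2b1, Hnrnpu, Hnrnpm, Pcbp2, Hnrnpl, Hnrnpd and Hnrnpa0, and lower ones Ddx5, Ybx1, Nono, Hnrnpk and Matr3. These 12 were named after their values were seen. Pcbp1, Pcbp2, Hnrnpd and Hnrnpa0 entered the test through their footprints, and Srsf3, Srsf5, Ybx1, Nono, Hnrnpk and Matr3 through their RNA.

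Actin genes stood near 0 as a class (0.04, interval -0.03 to 0.12), and at 0.45 under library totals. They held 2.969, 2.566 and 2.929% of the RNA and 3.807, 3.905 and 3.872% of the footprints. Of 28 tested 6 were higher and 5 lower, beside 15.2 and 25.7% of all tested genes. Actb had 120, 178 and 177 footprints, 9944, 10310 and 9803 scaled CPM against 8936, 9256 and 8990 (0.15 ± 0.21, adjusted p = 0.597). Coro1a had 54, 52 and 61 footprints, 4475, 3012 and 3378 scaled CPM against 1407, 1271 and 1433 (1.38 ± 0.16, adjusted p = 0.00019). Actg1, the gamma-actin gene, had 0, 2 and 1 footprints against 779, 784 and 766 scaled CPM, a ratio of -3.62 with a counting interval from -5.89 to -2.07 (adjusted p = 0.000215). Actb and Actg1 encode nearly the same protein and resemble each other in coding sequence, so their reads may be divided in ways that differ with read length, which was not tested. Tmsb10, an actin-sequestering thymosin, had 0 footprints (at least 10.9-fold lower, adjusted p = 0.000409), and its relative Tmsb4x had 10, 16 and 34 and did not pass (-0.58 ± 0.25, adjusted p = 0.0873). Actg1 and Tmsb10 entered through their RNA.

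Tested chaperones fell into 3 classes. Their counts, and those of glycolysis, stand beside 15.2% higher and 25.7% lower over all tested genes. Of 13 tested genes of the endoplasmic reticulum 3 were higher and 0 lower (summed ratio 0.25, interval 0.11 to 0.39), and of 5 tested heat shock genes 0 were higher and 2 lower (-0.74, interval -0.94 to -0.54). Pdia3, a disulfide isomerase that helps to load MHC class I, had 14, 18 and 22 footprints, 1160, 1043 and 1218 scaled CPM against 366, 373 and 350 (1.65 ± 0.22, adjusted p = 0.000333). Hspa8, the constitutive Hsp70, had 2, 1 and 0 footprints against 1537, 1552 and 1515 scaled CPM, a ratio of -4.60 with a counting interval from -6.88 to -3.05 (adjusted p = 4.39e-05), and entered through its RNA. Hsp90ab1, a cytosolic Hsp90, had 19, 25 and 26 (-0.45 ± 0.16, adjusted p = 0.0421), a call lost when any 1 library was left out. The 8 tested genes of the TRiC chaperonin had a median of 0.07 with 1 higher. That gene, Cct5, had 5, 15 and 16 footprints, with library 1 below the RNA (0.76 ± 0.25, adjusted p = 0.0363), and leaving out 1 library took away the call in 5 of 6 cases. In glycolysis 2 of 6 were lower and 0 higher: Ldha, lactate dehydrogenase, had 2, 4 and 7 footprints (-1.46 ± 0.28, adjusted p = 0.00238) and Pkm, pyruvate kinase, had 2, 9 and 8 (-1.25 ± 0.26, adjusted p = 0.00364). The class sum was -0.40 (interval -0.61 to -0.19) and 0.01 under library totals.

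Over all tested genes 15.2% were higher and 25.7% lower. In the class I presentation genes 1 of 12 tested was higher and 1 lower. Tapbp, the tapasin of the peptide-loading complex, had 12, 20 and 16 footprints (1.34 ± 0.21, adjusted p = 0.000701). B2m had 34, 54 and 67 footprints, 2817, 3128 and 3711 scaled CPM against 2428, 2544 and 2360; all footprint libraries were above the RNA, and the test was not passed (0.41 ± 0.17, adjusted p = 0.0737). Of 7 tested interferon-stimulated genes 1 was higher (Ly6e, 0.90 ± 0.20, adjusted p = 0.00596) and 2 were lower, Gbp4, a guanylate-binding protein, with 2, 0 and 0 footprints (-3.89, counting interval -6.93 to -2.03) and Rnf213, a large ubiquitin ligase, with 2, 1 and 3 (-2.33 ± 0.37, adjusted p = 0.000762). Gbp4 and Rnf213 entered through their RNA. The summed ratio of interferon-stimulated genes was -0.24 (interval -0.43 to -0.06), and 0.17 under library totals.

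Some messages with known control by upstream reading frames or regulatory elements were below the minimum for a test. Atf4, the effector of the integrated stress response whose own message carries upstream reading frames, had 1, 1 and 2 footprints against 436, 436 and 441 scaled CPM of RNA (pooled ratio -2.38, counting interval -4.25 to -1.02). Odc1, the first enzyme of polyamine synthesis, had 1, 0 and 2 against 487, 481 and 498 (-2.95, interval -5.23 to -1.40). Azin1, which protects Odc1 from decay, had 1, 0 and 1 against 314, 311 and 310 (-2.89, interval -5.93 to -1.03). All 3 intervals lie below 0. The 12 polyamine genes had 17 footprints together (-1.79, interval -2.57 to -1.11). Fth1, the ferritin heavy chain whose message binds iron regulatory proteins, had 2, 5 and 4 footprints (0.62, interval -0.38 to 1.46). Selenot, a selenoprotein, was tested and did not pass (0.42 ± 0.43, adjusted p = 0.443).

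A few genes stood far from the rest. Ptprcap (chromosome 19, 4154646 to 4156710), a partner of CD45, had 17, 12 and 12 footprints, 1409, 695 and 665 scaled CPM, and almost no RNA, 0.111, 0.0868 and 0 scaled CPM (edgeR, adjusted p = 4.91e-06). It was 1 of 4 genes with enough footprints and under 1 CPM of RNA. The other 3, named after their values were seen, were Pdcd2 with 1, 6 and 7 footprints and RNA at 0 in every library, Srrm3 with 4, 3 and 4, and Dact3 with 5, 2 and 3. At the other end, Ccdc107 (chromosome 4, 43493340 to 43495921) had 0, 0 and 1 footprints against 3580, 2347 and 3710 scaled CPM of RNA (ratio -7.25, counting interval -12.55 to -4.77, adjusted p = 3.3e-05). The RNA gene Rmrp lies next to Ccdc107 in the RefSeq table. How reads of neighbouring or overlapping features were counted is not given in the sources used here, and its part in the values of Ccdc107, Ptprcap and Pdcd2 was not tested, so these may not be ratios of a message. Ube2d3, a ubiquitin-conjugating enzyme, and Taf1d, a subunit of the RNA polymerase I factor SL1, had 0 footprints and were each at least 10.4-fold lower. Bcl2, the survival gene, had 3, 0 and 0 footprints (-2.96, counting interval -5.23 to -1.41, adjusted p = 0.00812, and 0.052 without footprint replicate 2). Among the highest ratios were also Arf5, a small GTPase of the Golgi, with 7, 14 and 14 footprints (3.03 ± 0.38, adjusted p = 0.000234) and Dad1, a subunit of oligosaccharyltransferase, with 9, 6 and 5 (2.58 ± 0.54, adjusted p = 0.00413). Ptprcap, Arf5 and Dad1 entered through their footprints, and the tested lower genes named here through their RNA.

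The annotation of the tested genes differed along the ratio. Genes were divided into 4 groups of equal number by the length of the gene on the chromosome, introns included, with bounds at 7.2, 20.9 and 45.5 kb. The median ratio was 0.08, 0.18, -0.02 and -0.71 from the shortest to the longest group, and 0.41 in the shortest once ribosomal protein genes were left out. Among the 181 longest genes 8 were higher and 66 lower (4.42 and 36.5%, beside 15.2 and 25.7% of all tested). Tested genes that contain a small RNA gene, 121 in all, had a median of -0.65, and the 601 without had -0.05; without ribosomal protein genes the medians were -0.36 and -0.02. Genes overlapped by another coding gene stood at -0.09, the others at -0.17. These are descriptions of overlapping divisions, and the length and base composition of the coding sequence were not used here.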

How the data were processed

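The submitters' processing notes name STAR 2.5 and the build mm10 (GRCm38). The authors deposited unnormalized counts, whole numbers of reads within the coding sequence of each gene. The counting tool, the annotation release and the handling of strands and of reads with several matches are not given in the sources used here, so genes that overlap or have near-identical copies are uncertain. Ensembl identifiers were matched to RefSeq names and positions of GRCm38, which named 21838 of 21957 genes and left 119 without a symbol. List symbols that match 2 identifiers (Aldoa, Atp5o, Ddit3, Myl12b) count as 2 entries, and list symbols without an entry were left out.

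The 3 footprint and 3 RNA libraries of unstimulated cells were fitted with edgeR 4.0.16 (R 4.3.3, limma 3.58.1) as a single assay term, with the quasi-likelihood test, two-sided, Benjamini-Hochberg adjustment over 725 genes and a threshold of 0.05. Tested genes had at least 250 CPM averaged over the footprint and the RNA mean, and TMM factors were computed on them. The 5 stimulated libraries were not used. The script was tested on simulated data. Classes are described by counts, medians and sums over all their members, without a test. A gene with 0 footprints was set to 3 counts over the 3 libraries, and a gene with 1 to 3 got an exact Poisson interval.

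Named genes were the 15 highest and 15 lowest that passed with no overlap between the assays, 2 members per class in each direction that passed (or the 2 with most RNA where none did), whole marker lists and a fixed set; others are marked, and some that the rule names are not reported here. The members and lists were chosen with earlier results of these data known. Alternatives were DESeq2 1.42.0, limma voom, other scalings, filters and thresholds, a replicate block, thinned RNA counts (seed 20) and each library left out. Tests added after seeing the data were those without genes that have a named pseudogene or an overlapping coding gene, and totals without 4 Gm genes. The planned look at coding length and GC content was not run.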

Additional observations from a re-analysis of the deposited data

How the results depend on the processing

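Numbers of genes higher and lower in footprints, 110 and 186 in the reported test, were 173 and 196 with DESeq2, 74 and 119 with limma voom, 187 and 116 with library totals, 352 and 3101 without a filter (21327 genes), 54 and 67 at 500 CPM (217 genes), 47 and 93 with thinned RNA, 55 and 120 at an adjusted p of 0.01, and 167 and 135 with totals that left out 4 Gm genes, an alternative chosen after seeing the data. Without single libraries they ranged from 89 to 103 and from 155 to 175. Whether replicate numbers pair the libraries was not settled. Same-numbered footprint and RNA libraries correlated at 0.10, 0.20 and 0.06, and differently numbered ones at -0.23 to 0.14. Not every library correlated best with its own number. Counting error is large at this footprint depth, so the check cannot decide, and the reported test was unpaired. With the number as a block 74 genes were higher and 143 lower, of which 71 and 142 were the same genes. The median moved by -1.22 without a filter, -0.45 for genes with at least 10 footprints, 0.59 for genes with at least 250 CPM of RNA and 0.17 with thinned RNA. The interquartile range of the log2 ratio, 1.67, was 6.03 without a filter, 1.45 with at least 10 footprints, 1.96 with at least 250 CPM of RNA, and 1.65 to 1.79 without single libraries.

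With library totals the summed ratios of T cell receptor genes (0.10), glycolysis (0.01) and interferon-stimulated genes (0.17; 0.05 without the 4 Gm genes) changed sign. Without a filter the ratio changed sign for Hist1h1b (-0.20), Hist1h1a (-0.38), Hist1h1c (-0.59), Cct5 (-0.46), Slc7a5 (-0.22), Ly6e (-0.32) and Cd8a (-1.19), and for Hsp90ab1 (0.15) with at least 250 CPM of RNA. The cause was not tested. Of 77 named genes that passed, 60 did so without any single library. The filter sets the low end: a gene with 0 footprints could be tested only through its RNA. The lowest RNA among the 14 such genes, 575.6 scaled CPM, therefore lies at the edge of the filter.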

Other observations

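Classes not described above stood near 0 on the scaled ratio, where equal shares lie below 0, or had few footprints. Their counts stand beside 15.2% higher and 25.7% lower over all tested genes. The 20 cytosolic aminoacyl-tRNA synthetase genes had a summed log2 ratio of -0.04 (counting interval -0.23 to 0.15), and 1 of 8 tested was lower. That gene was Eprs, with 2, 5 and 6 footprints (-1.03 ± 0.30, edgeR adjusted p = 0.0208, and 0.0982 or 0.0564 without footprint replicate 1 or 2). Integrated stress response genes stood at 0.10 (-0.10 to 0.28), with 2 of 5 tested higher, both of them the amino acid transporter chains Slc3a2 and Slc7a5. Genes of cholesterol and fatty acid synthesis stood at 0.05 (-0.19 to 0.29), and Fasn, the fatty acid synthase, did not pass (-0.67 ± 0.48). Tubulins stood at -0.46 (-0.75 to -0.18; -0.05 with library totals). The single tested tubulin gene, Tubb5, had 16, 27 and 47 footprints and did not pass (-0.24 ± 0.22).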
